A study of Mus musculus with 4 samples.

Results

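The genes that build the nuclear lamina and the nuclear pores, and those that carry cargo through the pores, were examined in the lens of Control mice and of mice with a conditional knockout of Celf1 (Celf1 cKO). The rule took them by their names: nucleoporins (Nup followed by a number), karyopherins (Kpna, Kpnb, Ipo and Xpo families), the lamins Lmna, Lmnb1 and Lmnb2, and the genes Lbr, Emd, Tmpo, Banf1, Syne1, Syne2, Tpr, Ran, Rangap1, Ranbp1, Ranbp2 and Nxf1. Of 106 array probes with such a name, 61 were detected above background on at least 2 of 4 arrays, among 16262 probes detected in that way out of 45263. The names stood for 52 genes, of which 41 could be tested among 11516 genes in all.

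CELF1 is an RNA-binding protein that acts on the splicing, stability and translation of its target RNAs. The Celf1 cKO mice carried a germline lacZ knock-in allele that inactivates Celf1 and a floxed allele from which exon 5 is removed by a Cre transgene driven by Pax6 regulatory sequence, active in the lens lineage from the placode on. The Control mice had the same knock-in allele and 1 wild-type allele (Celf1 lacZKI/+), so both genotypes had a germline inactivated copy. Whether the Control mice carried the Cre transgene is not given in the sources used here, so presence of Cre and loss of Celf1 cannot be told apart. Lenses were taken at postnatal day 6 from mice of mixed C57BL/6 and FVB background, with RNA of 1 lens on each array and 2 arrays per genotype, labelled A and B. Sex is not given in the labels.

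The nuclear envelope is a double membrane whose inner face is lined by the lamina, a meshwork of A-type and B-type lamins to which chromatin is tethered through inner membrane proteins. Nuclear pores are built from nucleoporins arranged in rings, and importins and exportins carry proteins and RNAs through them in cycles powered by the GTPase Ran. These genes have a particular setting in the lens, where fiber cells dismantle their nuclei as they mature.

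Several genes were read by more than 1 probe, each an oligonucleotide of 50 bases that reads the transcript at that stretch, and the size of the change differed from probe to probe. The 6 Lmna probes are numbered from the 5′ to the 3′ end of the gene, and probes 2 to 4 overlap in part, so they read partly the same stretch. The retained probes of Emd and Nup88 are shown here because Emd was called by both of its probes and those of Nup88 differed from each other. Positions are given as deposited, and the genome build behind them is not stated in the sources used here.

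The probes of Emd lie on the plus strand at chrX:71499156-71499205 and chrX:71499679-71499728 and do not overlap each other.
Emd probe 1: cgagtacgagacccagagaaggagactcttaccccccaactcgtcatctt
Emd probe 2: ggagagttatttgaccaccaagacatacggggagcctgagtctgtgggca
The probes of Nup88 lie on the minus strand, each in 2 segments, within chr11:70781502-70783182 and chr11:70761229-70761305, and their capitals mark the bases of the 5′ segment. The files mark probe 1 as specific to an isoform and probe 2 as reading all isoforms.
Nup88 probe 1: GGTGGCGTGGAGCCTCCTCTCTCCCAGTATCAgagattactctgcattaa
Nup88 probe 2: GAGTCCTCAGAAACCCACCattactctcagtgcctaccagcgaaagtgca

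The targeted gene was examined first. The log2 signal of Celf1 was 7.45 in cKO A and 6.95 in cKO B, against 8.71 in Control A and 8.55 in Control B. Both cKO values lay below both Control values, and Celf1 was reduced (log2 fold change -1.43, SE 0.19, adjusted p = 0.00978 in limma). The median unnormalized intensity of the 61 probes was 187.3 and 209.7 on the cKO arrays against 113.8 and 93.9 on the Control arrays. Over the probes detected on each array it was 109.8 and 109.2 against 100.05 and 84.7. Those probes were not the same set on each array (16261 and 16925 against 14542 and 14180). The 99th percentile over all probes was 3208.71 and 3444.26 against 2158.37 and 1699.23. The brightness of the arrays cannot be told apart from genotype. Xist, the RNA of the inactive X chromosome, was above background in the cKO lenses alone, at 7.42 and 7.27 on the log2 scale. The Y-linked Ddx3y was at 6.81 in cKO A and 4.82 in cKO B against 8.99 and 8.82 in Control lenses and was reduced (log2 fold change -3.09, limma adjusted p = 0.0195), so that cKO A held signal of both genes. Uty, also Y-linked, was above background in the cKO lenses alone and was not called (at least 1.03-fold higher, limma adjusted p = 0.226). Genotype and sex cannot be told apart. All differences are in whole-lens RNA, where fewer cells of a type and less RNA per cell cannot be told apart.

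Among the 41 tested genes, the lamin gene Lmna and the emerin gene Emd were elevated in Celf1 cKO lenses, and the importin genes Kpna3 and Kpnb1 were reduced. A gene was called when the limma p, adjusted over all genes, was under 0.05, the absolute log2 fold change was over 0.58 and the mean log2 signal was over 4.6. The 4 called genes were 9.76% of those tested, and 11.6% of all genes were called. Of all genes, 6.01% were called elevated and 5.64% reduced, against 2 genes in each direction here. The median log2 fold change was 0.10 over the 41 genes and 0.01 over all genes. The values of the genotypes did not overlap for 30 of the 41 genes (73.2%), against 62.3% of all genes. With 2 arrays per genotype an exact permutation test cannot give a p under 0.333. The limma p-values given rest on these 4 lenses, with the variance of each gene drawn toward that of all genes tested. They therefore do not measure the spread of a gene between these lenses alone.

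**Figure D1:**
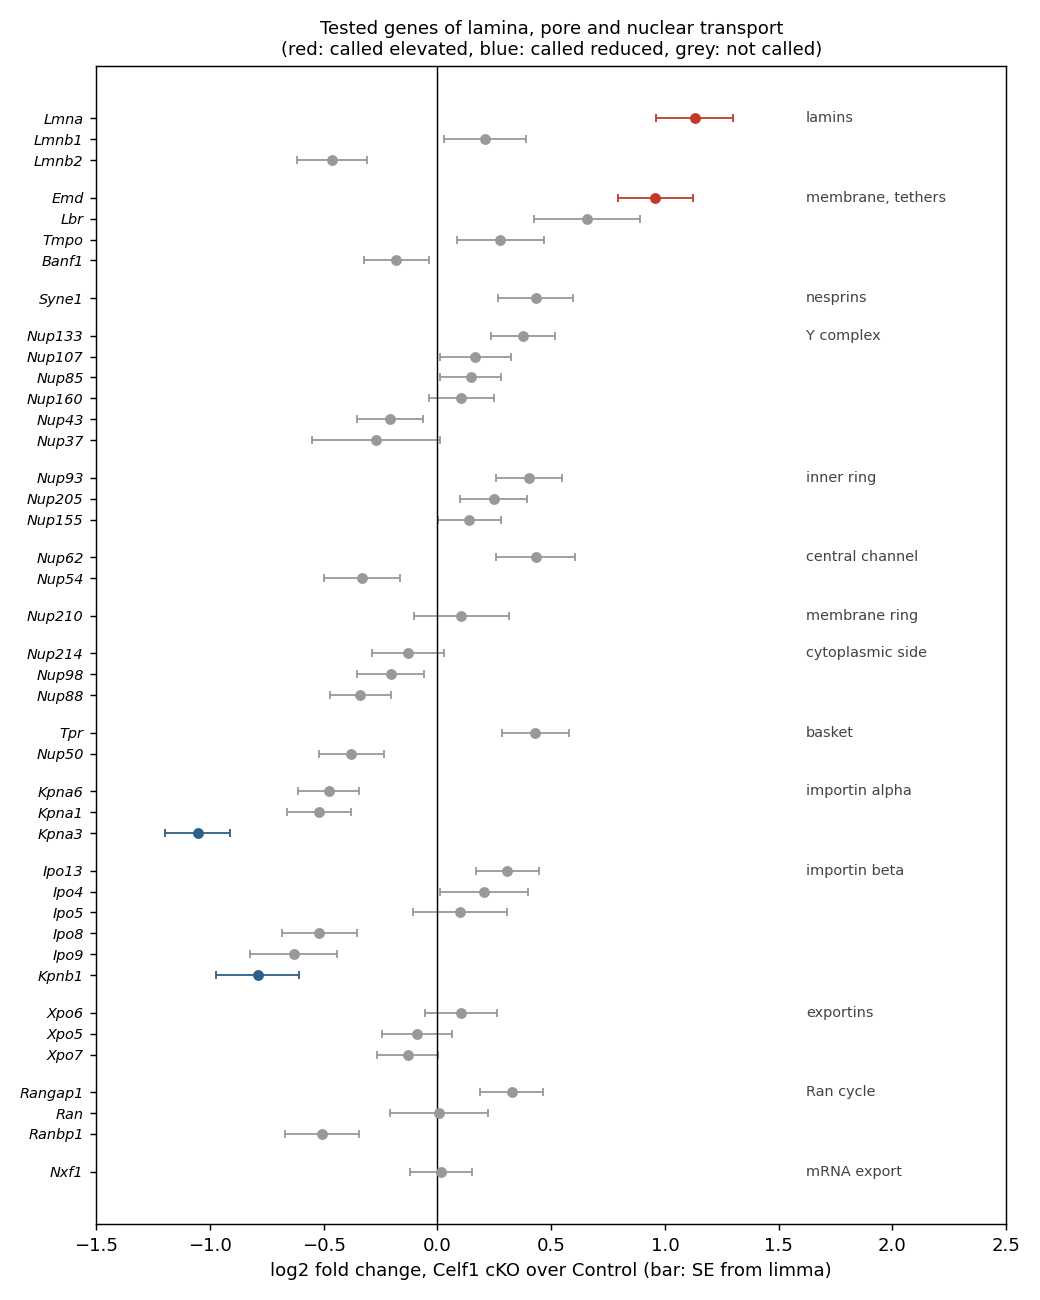
Log2 fold change (Celf1 cKO over Control, horizontal axis) of the 41 tested genes, grouped by role, with bars of 1 SE from limma. Lmna and Emd lie farthest to the right, Kpna3 and Kpnb1 farthest to the left, and no nucleoporin lies outside -0.38 to 0.43.

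Lmna encodes the A-type lamins, and Lmnb1 and Lmnb2 encode B-type lamins. The log2 signal of Lmna, averaged over its 6 probes, was 6.94 in cKO A and 7.29 in cKO B, against 5.89 in Control A and 6.08 in Control B. Both cKO lenses lay above both Control lenses, and Lmna was elevated 2.19-fold (log2 fold change 1.13, SE 0.17, adjusted p = 0.0129 in limma). Lmnb1 gave 7.48 and 7.76 in cKO lenses against 7.595 and 7.24 in Control lenses, so that the genotypes overlapped (log2 fold change 0.21, limma adjusted p = 0.470). Lmnb2 gave 6.64 and 6.38 in cKO lenses against 6.90 and 7.04 in Control lenses. The cKO values of Lmnb2 were both the lower ones, but the difference was not called (log2 fold change -0.46 ± 0.15, limma adjusted p = 0.0930). The differences of Lmna from Lmnb1 and from Lmnb2 were not tested.

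**Figure D2:**
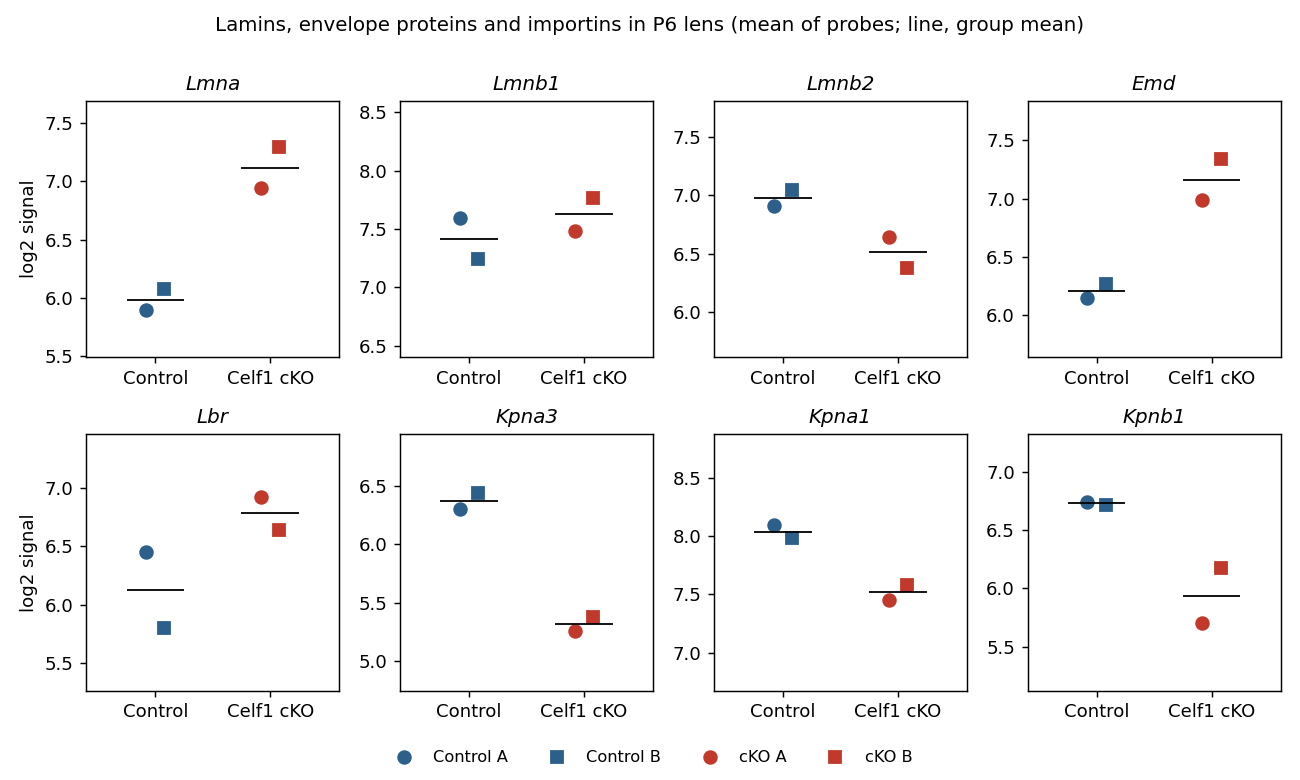
Log2 signal of 8 genes on each of the 4 arrays, with circles for replicate A, squares for replicate B and a line at the mean of each genotype; every vertical axis spans the same range. The genotypes are separated for Lmna, Emd, Kpna3 and Kpnb1, and overlap for Lmnb1.

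Lmna was elevated across several probes, but not to the same size. The unnormalized intensity of probe 3 was 311.9 in cKO A and 463.7 in cKO B, against 113.8 in Control A and 90.5 in Control B. Probe 5 gave 408.5 and 604.1 in cKO lenses against 177.4 and 165.9 in Control lenses. Probe 6, the most 3′, gave 54.3 and 58.0 in cKO lenses and was not above background in Control lenses, where it read 43.5 and 39.6. Every Lmna probe read higher in both cKO lenses than in both Control lenses. In the fit of single probes, where 11.5% of all probes were called, the log2 fold changes were 1.22, 1.51, 1.44 and 1.38 for probes 1 to 4 and 0.84 for probe 5. Probes 1 to 5 were called, with limma adjusted p from 0.00705 to 0.0397. Probe 6 was not (limma adjusted p = 0.124), and since it was retained only through its cKO signal, its values were bound to differ. The files tie probes 2 and 6 to 1 Lmna transcript record and the other 4 probes to another record.

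**Figure D3:**
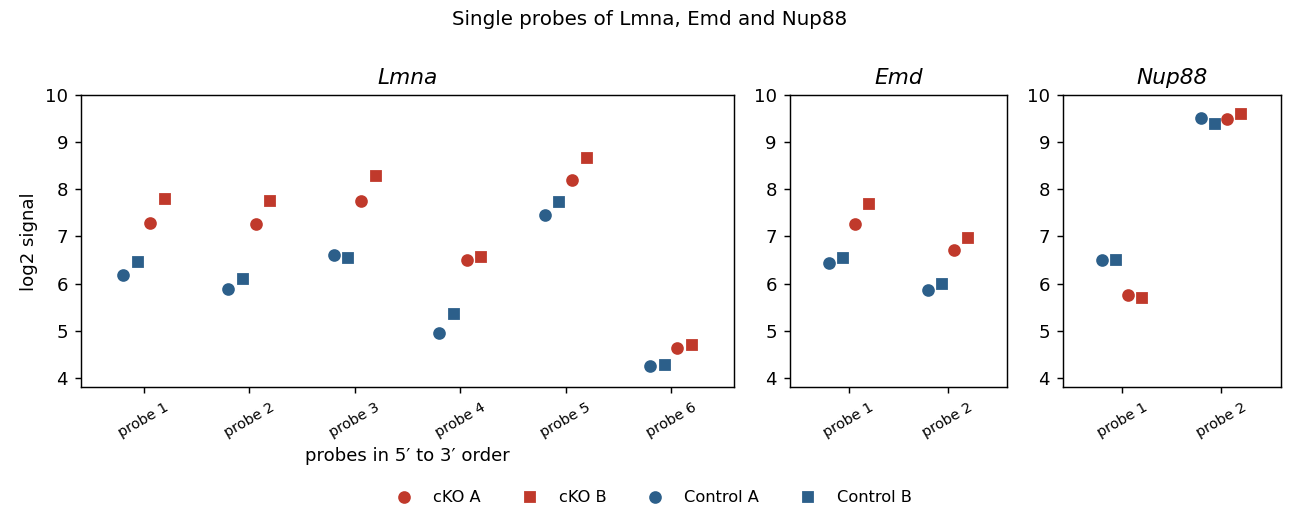
Log2 signal of single probes of Lmna, Emd and Nup88 on the 4 arrays, in 5′ to 3′ order, with circles for replicate A and squares for replicate B. Lmna probes 1 to 5 and both Emd probes are separated by genotype, and the Nup88 probes differ from each other in that only probe 1 is lower in cKO lenses.

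Among the proteins that tether chromatin to the lamina, Emd was elevated. Emerin is an inner nuclear membrane protein of the LEM domain family that binds lamins and the chromatin protein BAF. Its log2 signal was 6.99 in cKO A and 7.34 in cKO B, against 6.15 in Control A and 6.27 in Control B. Both cKO lenses lay above both Control lenses, a 1.94-fold elevation (log2 fold change 0.96, SE 0.17, adjusted p = 0.0182 in limma). The Emd probes shown above gave 0.996 (probe 1) and 0.918 (probe 2) on the log2 scale and were both called. Emd lies on the X chromosome. Of 330 X-linked genes tested, 51 (15.5%) were called, 38 of them elevated, and their median log2 fold change was 0.13, beside 11.6% of all genes called, 6.01% called elevated and a median of 0.01. The part of sex in the Emd result was not tested.

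Lbr, the lamin B receptor, had a log2 signal of 6.92 and 6.64 in cKO lenses against 6.45 and 5.80 in Control lenses. Its values were higher in both cKO lenses, but the Control lenses were far apart and Lbr was not called (log2 fold change 0.66 ± 0.23, limma adjusted p = 0.107). Without Control A, Lbr was at 1.001 and called (limma adjusted p = 0.0351), and without Control B it was at 0.34 (limma adjusted p = 0.303). Banf1, which encodes BAF and links DNA to LEM domain proteins, was at 9.41 and 9.31 in cKO lenses against 9.46 and 9.63 in Control lenses (log2 fold change -0.18, limma adjusted p = 0.423). Its 4 probes ranged from -0.57 to 0.07 on the log2 scale and none was called. Tmpo, which encodes the lamina-associated LAP2 proteins, and Syne1, a nesprin that links the envelope to the cytoskeleton, were not above background in Control lenses. The log2 signal of Tmpo was 4.80 and 4.602 in cKO lenses against 4.66 and 4.19, and no fold is given. Syne1 was at 5.09 and 4.81 against 4.63 and 4.40, or at least 1.15-fold higher, and was not called (limma adjusted p = 0.126). Each of them was retained only through the cKO arrays. Syne2, the other nesprin of the set, was not detected.

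In the lamina and membrane group as a whole, 6 of 8 tested genes had higher means in cKO lenses, 2 (25%) were called elevated and 0 reduced, beside 6.01% and 5.64% of all genes. Tmpo and Syne1, among the 6, were retained only through the cKO arrays, and with detection on all 4 arrays 4 of 6 genes were higher. With the arrays set to the same median over all probes, which put the median of all genes at 0.53, 8 of 8 were higher, and with the same median over probes detected on all 4 arrays, which put it at -0.19, 4 of 8 were higher. These scalings differ only by a constant per array, so values relative to the median of all genes are the same under both by construction. Relative to that median, 6 of the 8 lay above and 2 below, as in the reported fit. Lmna and Emd were called elevated under both, but under the first, 6 of the 8 genes were called elevated, beside 47% of all genes called, of which 97.3% were elevated, and under the second 23.4% of all genes were called. The size of the change moved as well. Lmna was at 1.74 and Emd at 1.67 on the log2 scale with the same median over all probes, and Lmna was at 1.785 from the deposited normalized intensity with values under 1 set to 1, where neither was called. With a background offset of 50, Lmna was at 0.84 and Emd at 0.72. With the brightest probe of each gene, Lmna was at 0.84 and Emd at 0.996.

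Genes of the pathway that clears fiber cell nuclei were read beside the lamins. Dnase2b, the nuclease that digests fiber cell DNA, was at 6.38 and 5.82 in cKO lenses against 7.63 and 7.77 in Control lenses on the log2 scale. Trex1, an exonuclease, was at 7.56 and 6.92 against 10.07 and 10.13. Both were reduced in cKO lenses, with log2 fold changes of -1.60 and -2.86 (limma adjusted p = 0.00842 and 0.00214). Cdkn1a, a cyclin-dependent kinase inhibitor, was elevated at least 14.7-fold, since none of its probes was above background in Control lenses (limma adjusted p = 0.00425). It was retained only through the cKO arrays. Hsf4, a lens heat shock factor, Cdk1, the mitotic kinase that phosphorylates lamins, and Cdkn1b, another kinase inhibitor, were not called (log2 fold changes -0.43, 0.23 and -0.39).

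Of the nucleoporins that carry a Nup symbol or are Tpr or Ranbp2, none was called in limma. Of 22 nucleoporins of the set, 17 were tested, with log2 fold changes from -0.38 to 0.43 and a median of 0.11. Their means were higher in cKO lenses for 10 and lower for 7, and 6 of them (35.3%) had an unadjusted p under 0.05, against 31.9% of all genes. The lowest adjusted p among them was 0.0983. The values of the genotypes did not overlap for 14 of the 17 (82.4%), beside 62.3% of all genes. The absence of calls depended on the scaling. With the same median over all probes, 15 of the 17 had higher means and 10 were called elevated, beside 47% of all genes called, and with the same median over probes detected on all 4 arrays, 3 were called reduced, beside 23.4% of all genes called.

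By position in the pore, the 6 genes of the Y complex, the outer scaffold, ranged from -0.27 to 0.38. Nup107, a core subunit of it, was at 5.54 and 5.57 in cKO lenses against 5.54 and 5.24 in Control lenses on the log2 scale. In the inner ring, the scaffold around the channel, 3 of 5 genes were tested, with log2 fold changes from 0.14 to 0.40 and none called. The lowest, 0.14, was that of Nup155, whose dimmer probe was retained only through the cKO arrays. Its other probe, detected on all 4 arrays, gave -0.07, and with that probe alone 2 of the 3 genes were higher and 1 lower. Nup210, a transmembrane nucleoporin of the luminal ring, gave 0.11 (limma adjusted p = 0.760), and its cKO lenses, at 8.17 and 7.59, lay on either side of the Control lenses, at 7.85 and 7.70.

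Nup62, whose disordered repeats line the central channel, was at 8.59 and 8.83 in cKO lenses against 8.11 and 8.45 in Control lenses. Tpr, which builds the filaments of the nuclear basket, was at 9.003 and 9.13 against 8.74 and 8.54. Both were higher in each cKO lens than in each Control lens, with log2 fold changes of 0.43 for Nup62 (limma adjusted p = 0.141) and 0.43 for Tpr (limma adjusted p = 0.0983), and neither was called. Tpr was read by 1 of its 3 probes, since the others were detected on no array. Without a detection filter it was at 0.12. On the cytoplasmic side, the log2 fold changes of the 3 tested genes ran from -0.34 to -0.13, and with the same median over all probes all 3 had higher means in cKO lenses, while 2 of the 3 lay below the median of all genes. Nup214, a docking site for transport receptors, gave -0.13 and Nup98, a mobile nucleoporin that also takes part in mRNA export, gave -0.21. Neither was called (limma adjusted p = 0.613 and 0.380).

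Within Nup88, a partner of Nup214, 2 of 4 probes were retained, and these disagreed. The probes left out had unnormalized intensities of 45.1 to 55.9. This gene was singled out after its values were seen. The isoform-specific probe 1 was called reduced (log2 fold change -0.77, SE 0.15, limma adjusted p = 0.0219 in the fit of single probes), while probe 2, for all isoforms, gave 0.09 ± 0.15 (limma adjusted p = 0.730). The unnormalized intensity of probe 1 was 93.7 and 95.6 in cKO lenses against 107.7 and 88.3 in Control lenses. On that scale the genotypes overlapped, and the separation appeared after normalization. Probe 2 was brighter, at 953.9 and 1120.5 against 648.1 and 468.3. The difference between the probes was not tested.

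Import receptors held both reduced genes. Importin alpha proteins recognise the classical nuclear localisation signal of a cargo, and importin beta, encoded by Kpnb1, carries the complex through the pore. The log2 signal of Kpna3, an importin alpha, was 5.25 in cKO A and 5.38 in cKO B, against 6.31 in Control A and 6.44 in Control B. Both cKO lenses lay below both Control lenses, and Kpna3 was reduced 2.08-fold (log2 fold change -1.05, SE 0.14, adjusted p = 0.00953 in limma). Its single probe had an unnormalized intensity of 72.8 and 81.3 in cKO lenses against 98.8 and 86.2 in Control lenses, lower in the cKO lenses although their arrays were brighter.

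Kpnb1 was at 5.71 in cKO A and 6.17 in cKO B, against 6.74 in Control A and 6.72 in Control B. The cKO values were again the lower ones, a 1.73-fold reduction (log2 fold change -0.79, SE 0.18, adjusted p = 0.0377 in limma). Its single probe had an unnormalized intensity of 91.3 and 125.0 in cKO lenses against 121.3 and 97.7 in Control lenses, so that the genotypes overlapped before normalization. Kpna1, another importin alpha, was at 7.46 and 7.58 in cKO lenses against 8.09 and 7.98 in Control lenses and was not called (log2 fold change -0.52 ± 0.14, limma adjusted p = 0.0559). Ipo5, a carrier of ribosomal proteins and histones, gave 0.10 with overlapping values (limma adjusted p = 0.773).

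Over all importins, 9 of 12 genes were tested, 6 with lower and 3 with higher means in cKO lenses, and the median log2 fold change was -0.52. Of the 9, 2 (22.2%) were called reduced and 0 elevated, beside 5.64% and 6.01% of all genes. The values of the genotypes did not overlap for 7 of the 9 (77.8%), beside 62.3% of all genes, with the cKO lenses lower in 6 and higher in 1. Within the importin alpha family, the 3 tested genes ran from -1.05 to -0.48. These directions depended on the scaling. With the same median over all probes, which moved the median of all genes to 0.53, the median of the 9 importins was 0.28, 6 were higher, 3 were called elevated and 0 reduced, and Kpna1 turned to 0.28, beside 47% of all genes called, of which 97.3% were elevated. When the median over probes detected on all 4 arrays was made equal, 7 of the 9 were lower and 3 were called reduced, beside 23.4% of all genes called. Values relative to the median of all genes are the same under both scalings by construction. On that measure the median of the 9 importins was -0.25 and 6 of the 9 lay below. Kpna3 was at -0.48 with the same median over all probes (limma adjusted p = 0.0553) and Kpnb1 at -0.11 (limma adjusted p = 0.696).

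Of 5 exportins, 3 were tested, with log2 fold changes from -0.13 to 0.10 and limma adjusted p of at least 0.542. The Ran cycle drives the direction of transport. Ran was at 7.69 and 7.88 in cKO lenses, between the Control lenses at 8.08 and 7.48 (log2 fold change 0.01 ± 0.22, limma adjusted p = 0.988). Only 1 of the 3 Ran probes was retained. Ranbp1, a cofactor that helps Ran hydrolyse GTP in the cytoplasm, was at 10.63 and 10.33 in cKO lenses against 11.06 and 10.91 in Control lenses. Ranbp1 was lower in both cKO lenses without passing the threshold (log2 fold change -0.51 ± 0.16, limma adjusted p = 0.0823), and was at 0.28 with the same median over all probes, which was -0.26 relative to the median of all genes. Rangap1, the activator of that hydrolysis, was at 9.50 and 9.56 against 9.13 and 9.28 (log2 fold change 0.33, limma adjusted p = 0.161). Nxf1, the receptor for bulk mRNA export, gave 0.02 (limma adjusted p = 0.951).

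Detection set which genes could be read. Of the 106 probes, 52 were detected on all 4 arrays, 2 on 3 arrays, 7 on 2 arrays, 6 on 1 array and 39 on none. Of the 7 probes on 2 arrays, 6 were detected in both cKO lenses only and 0 in both Control lenses only. The probes just inside the limit had unnormalized intensities of 34.6 to 67.2, and those on 1 array, which was a cKO array in all 6 cases, 39.3 to 62.1. The 11 genes that could not be tested had 17 probes with intensities of 31.4 to 54.7, and they included Kpna2, Ipo7, Xpo1, Nup153, Ranbp2 and Syne2. A probe not above background gives only a bound, so no statement is made on their levels. Some tested genes rested on part of their probes. The share retained was 1 of 7 for Syne1, 1 of 5 for Tmpo, and 1 of 2 for Lmnb1, Lbr, Nup214, Ranbp1 and Nxf1.

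Beyond the set, 36 further genes of the envelope and of transport were counted. Of these, 31 were tested and 3 (9.68%) were called, against 11.6% of all genes, and their median log2 fold change was 0.17. Aaas, which encodes the pore protein aladin, was elevated (log2 fold change 0.80, limma adjusted p = 0.0308), with signals of 6.10 and 6.49 in cKO lenses against 5.51 and 5.48. Sun2, an inner membrane partner of nesprins, was elevated (log2 fold change 0.59, limma adjusted p = 0.0479), with 5.67 in both cKO lenses against 5.21 and 4.95. Nutf2, which returns Ran to the nucleus, was reduced (log2 fold change -0.86, limma adjusted p = 0.0154), with 8.15 and 8.10 against 8.91 and 9.06. Nutf2 has annotated pseudogene copies that its single probe could also read.

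Markers of cell types were read beside these results. All 8 lens fiber markers were tested, with lower means in cKO lenses for each, beside 5630 of all 11516 genes. Of them, 2 (Bfsp2 and Dnase2b) were called reduced, beside 5.64% of all genes, and Dnase2b was also among the nuclear clearance genes above. The markers not called ran from -0.48 (Lim2) to -0.05 (Crybb1) on the log2 scale. Their summed linear signal was 144179 to 152472 in cKO lenses and 165562 to 170997 in Control lenses. Of 4 lens epithelium markers, 3 were tested, all lower, with sums of 172.6 to 295.0 against 394.5 to 418.3, and Foxe3 was called reduced, while Pax6 was detected on no array. Of 4 macrophage markers, 3 were tested, with sums of 90.7 to 92.1 against 80.0 to 84.4, while Ptprc was detected on no array. Cd68, not above background in Control lenses, was retained only through the cKO arrays, so its values were bound to differ. It was called elevated, at least 1.26-fold. The other tested markers, Aif1 and Csf1r, gave -0.06 and -0.11 and were not called. The retina markers Rcvrn, Sag and Gnat1 and the pigment cell markers Rpe65, Tyr and Mlana were detected on no array. Pde6b, also a retina marker, was above background in the cKO lenses alone and was not called, and the remaining pigment cell genes had 3 detected probes in cKO B and 0 in the other lenses. The sums of the 4 vessel markers were 180.4 to 190.7 against 201.6 to 209.3, those of the blood markers were 305.6 to 704.9 against 419.7 to 539.9, and no gene of either list was called. Of 5 muscle markers only Des was tested, at 23.9 to 25.5 in cKO lenses against 27.0 to 36.9, and it was not called. The part of these markers in the results was not tested.

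The calls were sensitive to single arrays and to the processing. Without cKO B, and likewise without Control B, none of the 4 genes was called, with adjusted p of 0.0627 to 0.128 and of 0.0560 to 0.119 in limma. Kpnb1 was also lost without cKO A (limma adjusted p = 0.175) and without Control A (limma adjusted p = 0.0769). Lmna, Emd and Kpna3 were called without either of these arrays. The sign of all 4 genes was the same under every setting tried. Without cKO B, Lmna was at 1.05, Emd at 0.77, Kpna3 at -1.07 and Kpnb1 at -0.99. Without Control B, these genes were at 1.26, 1.045, -1.04 and -0.83, and without cKO A Kpnb1 was at -0.55. On Control B the median bead standard error of detected probes was 7.26% of their intensity, against 4.36% to 4.40% on the other arrays. Among all genes, 1.56% were called without cKO B, 1.52% without Control B, 5.6% without cKO A and 12.2% without Control A.

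Read against the same share over all genes, the number called among the 41 genes followed the setting. From the deposited normalized intensity with values under 1 set to 1, 0 were called, beside 0.0608% of all genes. With 16 added to the deposited intensity, Lmna, Emd and Kpna3 were called, beside 10.3% of all genes, and the same 3 genes with a background offset of 50, beside 6.85%. Without a detection filter only Kpna3 was called, beside 0.718%. With probes detected on all 4 arrays, and with the brightest probe of each gene, the same 4 genes were called, beside 14.8% and 13.2% of all genes. With the same median over all probes 23 genes were called, beside 47% of all genes, and with the same median over detected probes 8 genes, beside 23.4%. With the replicate letter as a block, which did not pair the arrays, Lbr and 1 further importin joined the 4 genes, beside 14.6% of all genes.

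**Figure D4:**
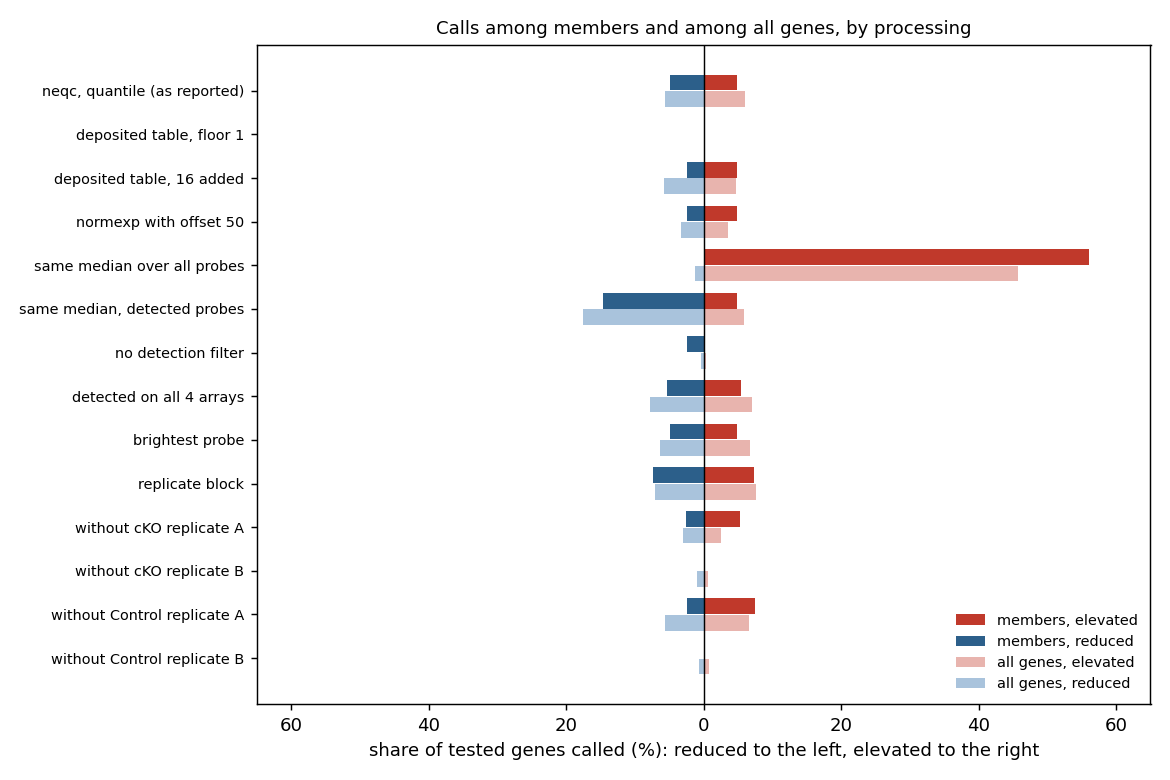
Share of tested genes called (percent) under each processing setting, reduced to the left and elevated to the right, for the lamina, pore and transport genes (dark bars) and for all genes tested (light bars). With the same median over all probes, 23 of the 41 genes were called elevated, beside 47% of all genes called in either direction.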

How the data were processed

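RNA of P6 lenses was hybridised to Illumina MouseWG-6 BeadChips. The authors deposited unnormalized intensity and rank-invariant normalized intensity, and, per probe, a detection p-value that places its signal among the negative control beads of the array. They also deposited other columns, the bead numbers and bead standard errors. Of 45281 probes, 18 on shifted lines were left out and 40 symbols replaced by dates were restored. Probes were named through RefSeq (GRCm38.p6) by Entrez identifier, accession or symbol. Only 5 of 49 probe positions of the set lay inside their gene in that assembly, so its coordinates were not used.

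Unnormalized intensity was background corrected by normexp with negative controls inferred from detection p-values (offset 16), put on the log2 scale and quantile normalized with limma 3.58.1 (R 4.3.3, tables read in Python 3.11.15). Probes with detection p under 0.05 on at least 2 arrays were kept and averaged per gene, which added 1 Nup98 probe named through RefSeq. Genotypes were compared with lmFit and eBayes, two-sided, and p-values were adjusted over all genes by the Benjamini-Hochberg method. In simulated data with known changes, the fit called 35.4% of changes of 1 log2 unit and 64% of those of 2 log2 units. A gene not called may therefore still differ. The fold and signal thresholds are those of the study, which used edgeR, a count model not applied here to intensities. Where no array of a genotype had a gene above background, a bound is given: the mean of the brighter genotype over the mean, per array, of its own signal or the lowest detected signal, whichever is higher. The small number of arrays limits the precision. Replicate letters did not pair the arrays (correlation of deviations -0.01).

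Members, lists and tests were chosen with earlier results of these data known. Named are Celf1, every called gene, a preset list of lamina, pore and transport genes, and called genes of the 36 further genes. Alternatives covered the table, background, scaling, detection filter, probe rule, replicate block and leaving out each array. Some probe sequences and 1 marker gene are not reported here.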

Additional observations from a re-analysis of the deposited data

How the results depend on the processing

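From the deposited normalized intensity with values under 1 set to 1, 0 genes were called elevated and 0 reduced, the median relative to all genes was 0.15 and Celf1 gave -1.52 (limma adjusted p = 0.0763), while 7 of all genes were called. With 16 added to it, 1 gene was called reduced, as with normexp offset 50. With the same median over all probes, 23 were elevated and 0 reduced, and 13 of the 41 turned from lower to higher, with values from 0.13 to 0.64 where the median of all genes was 0.53, and 10 of the 13 still lay below that median. Among them were Lmnb2 (0.26), Banf1 (0.64), Nup98 (0.28), Nup214 (0.62), Kpna1 (0.28), Nup88 (0.38) and Ranbp1 (0.28). That scaling moved the share of elevated among all calls from 51.6% to 97.3%. With the same median over probes detected on all 4 arrays, which put the median of all genes at -0.19 and that share at 24.8%, 6 were reduced, and Tmpo (-0.35), Syne1 (-0.12), Nup107 (-0.048), Nup155 (-0.29) and Ipo5 (-0.13) turned. Without a detection filter 0 were elevated and 1 reduced of 28850 genes tested, Celf1 gave -1.16 (limma adjusted p = 0.0716) and Ran turned to -0.025. Nup155 turned to -0.072 with detection on all 4 arrays and with the brightest probe, which turned 4 genes in all, among them Banf1 (0.0020) and Nup88 (0.09). With the replicate letter as a replicate block, 3 were elevated and 3 reduced, and the letters did not pair the arrays, so the samples share only a letter. Leaving out each array in turn, 0 to 3 were elevated, 0 to 1 reduced, the relative median ran from -0.032 (without cKO A) to 0.11, being -0.0003 without Control B, and Celf1 from -1.67 to -1.18 (lost without Control B, limma adjusted p = 0.0560). Among the genes named here that turned under these omissions, Nup155 ran from -0.10 to 0.17, Nup210 from -0.18 to 0.39, Nup214 from -0.29 to 0.037, Ipo5 from -0.17 to 0.37, Ran from -0.30 to 0.31 and Nxf1 from -0.039 to 0.071. Counts of genes called over all genes were 163 without cKO B, 170 without Control B, 593 without cKO A and 1364 without Control A, against 1341. Where an array is left out, the lone array of its genotype is assumed to vary like the other genotype. The cause of these shifts was not tested.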
